A study of Mus musculus with 3 samples.

Results

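The regions described here are places in the mouse liver genome where an mTOR chromatin immunoprecipitation (ChIP) library rose modestly above its immunoglobulin control, with no region of the nuclear receptor ERRα close by. The study sequenced 3 libraries from the livers of C57Bl/6 males aged 2 to 3 months: an mTOR ChIP, an ERRα ChIP and a rabbit immunoglobulin G (IgG) control. Each ChIP library pooled 8 immunoprecipitations from a chromatin pool of 26 livers, and the labels name no treatment, so the groups differ in antibody. There was 1 library per group: no value has a replicate check, no test between groups was possible, and each comparison is one between libraries. All values are coverage by sequence tags, scaled by the authors to 10000000 tags, from totals of 62500000 tags for mTOR, 74200000 for ERRα and 68800000 for IgG. Positions are on build mm9.

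mTOR is the serine/threonine kinase at the core of the mTORC1 and mTORC2 complexes, which couple nutrient and insulin signals to growth, and a part of it is found in the nucleus. An mTOR ChIP does not show whether contact with chromatin is direct or through other proteins. ERRα is an orphan nuclear receptor that binds DNA directly and is known for its control of genes of mitochondrial energy metabolism in liver and other tissues.

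Members were chosen by coverage alone. Coverage was averaged over 200-bp bins of chromosomes 1 to 19, with uncovered positions at 0. The fold of a bin is the ChIP value plus 0.2 divided by the IgG value plus 0.2. A bin was called where the ChIP exceeded 2.0 and the fold was at least 3, and adjacent called bins were merged into a region that took the fold of its highest bin. Weak mTOR regions away from ERRα are those with a fold from 3 to below 10 and with more than 1 kb between them and any ERRα region. There were 6997 of them among 9053 mTOR regions (77.3%). The rest comprised 853 strong regions (10-fold or more) away from ERRα, 1088 weak regions near ERRα and 115 strong regions near ERRα. Of 11578781 bins with IgG coverage, 0.138% were called for mTOR at any fold and 0.121% at a fold from 3 to below 10. Since mTOR, IgG and ERRα coverage in the bins chose the members, these levels are given as a description.

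The weak regions were many, short and low. They spanned 2182 kb and held 0.569% of the autosomal mTOR coverage, while the 853 strong regions away from ERRα spanned 592 kb and held 0.446%. Their median fold was 4.22 (quartiles 3.49 and 5.502). In the highest bin, mTOR coverage had a median of 2.93 (quartiles 2.38 and 3.98), and IgG had a median of 0.552 (0.422 and 0.700). The IgG level was close to the median of 0.564 over all covered bins, and the mTOR level was above the 0.530 found for mTOR over the same bins. On the approximate scale of tags, a typical highest bin held 24 mTOR tags against 5 IgG tags. The exact (Clopper-Pearson) 95% interval of the ratio, which covers counting error only, lay above 1 in all 6997 regions, as it did in 0.469% of all covered bins. The limits on level and fold set this outcome for the members in advance. That interval lay above 2 in 3436 regions (49.1%) and above 3 in 1354 (19.4%). In the other regions it reached down to 2 or below, and the intervals make no allowance for the selection of high ratios.

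Folds fell off steeply from the lower limit. A fold from 3 to below 4 was found in 3107 members (44.4%), from 4 to below 5 in 1593, from 5 to below 7 in 1486 and from 7 to below 10 in 811 (11.6%). Across these 4 bands the median mTOR level went from 2.51 through 2.88 and 3.83 to 5.38, while median IgG was 0.6 in the lowest and 0.5 in each of the other 3. In the lowest band 160 members (5.15%) had an interval above 2, against 979 of 1593 in the next. Bands and intervals come from the same bin values, so a rise across bands was built in. With the roles of mTOR and IgG swapped, the same rule found 124 regions, equal to 1.77% of the member count and holding 0.00107% of covered bins. Of these, 112 lay in the lowest band (3.605% of the members there), 9 in the next (0.565%), 1 from 5 to below 7 and 2 from 7 to below 10. Background measured this way lay mostly at the lower limit. Its size depended on the settings: the swapped count was 14.4% of the members where each library was compared with its own mean, 9.21% with 100-bp bins, 7.76% with IgG averaged within 1 kb and 0.114% with a minimum level of 3.0.

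**Figure D1:**
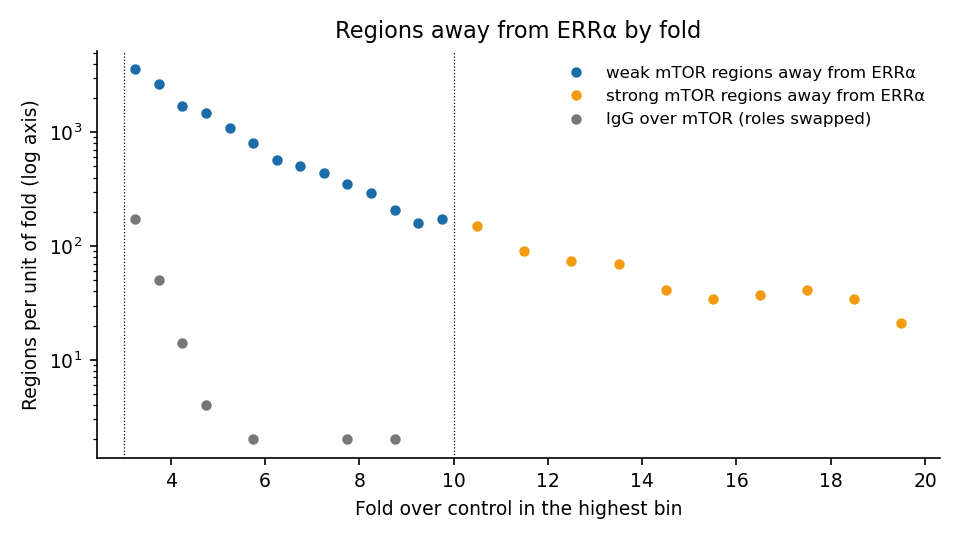
Number of regions away from ERRα per unit of fold (log axis) against the fold over control in the highest bin, up to 20-fold, for weak and strong mTOR regions and for IgG over mTOR with the roles swapped; dotted lines mark 3 and 10. Members fell from 1789 between 3 and 3.5 to 86 between 9.5 and 10 and passed without a step into the strong regions, of which 151 lay between 10 and 11.

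Neither limit separated distinct classes. The members closest to 3 were chr11:69186201-69186600, where coverage was 2.61 for mTOR, 0.526 for ERRα and 0.736 for IgG (3.00-fold, interval 1.43 to 9.59), chr7:152165201-152165400 and chr19:23107201-23107400. Just outside lay chr5:117787001-117787200, with 2.81 for mTOR and 0.803 for IgG, chr8:26311201-26311600 and chr8:63704601-63704800, and 2241 regions away from ERRα had a fold from 2.5 to below 3. At the upper limit, chr3:116641201-116641800 had 8.63 for mTOR, 1.36 for ERRα and 0.683 for IgG (9.997-fold, interval 5.78 to 37.2). A fold of 9.99 came from few tags at chr19:5316201-5316400, with 2.80 for mTOR against 0.1 for IgG, about 23 tags against 1, and an interval from 4.11 to 1043. Between these lay chr2:6063801-6064400, at 11.1 against 0.930. The nearest regions above 10-fold, chr16:11288801-11289400 and chr5:144178001-144178800, had 10.7 and 9.69 for mTOR against 0.885 and 0.788 for IgG, and chr1:173073001-173073400 had 3.81 against 0.2.

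The surroundings of the regions were flat. Median mTOR coverage was 2.93 in the highest bin, 1.73 in the bins on either side, 0.693 at 1 kb and 0.634 at 5 kb downstream on the reference. Relative to flanks 2 to 5 kb away on both sides, the highest bin stood at a median of 4.42 (quartiles 3.35 and 6.17), against 0.935 for all covered bins. The rule required mTOR above 2.0 in that bin, so a high ratio over flanks of ordinary level was largely set by the choice of members, and it is given as a description. Its median was 3.66 in the lowest fold band, 8.02 in the highest and 15.6 at strong regions away from ERRα. In 135 members (1.93%) the ratio was below 2, that is, their flanks were raised as well. IgG in the highest bin stood at 0.888 of its own flanks, against 0.952 for all covered bins. It was less than 0.5 of its flanks in 554 members (7.92%), against 10.95% of all covered bins. The share was 0.644% in the lowest fold band, 18.2% in the highest and 18.9% at strong regions. Because the same IgG value divides the fold, these bands differ in it by construction.

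**Figure D2:**
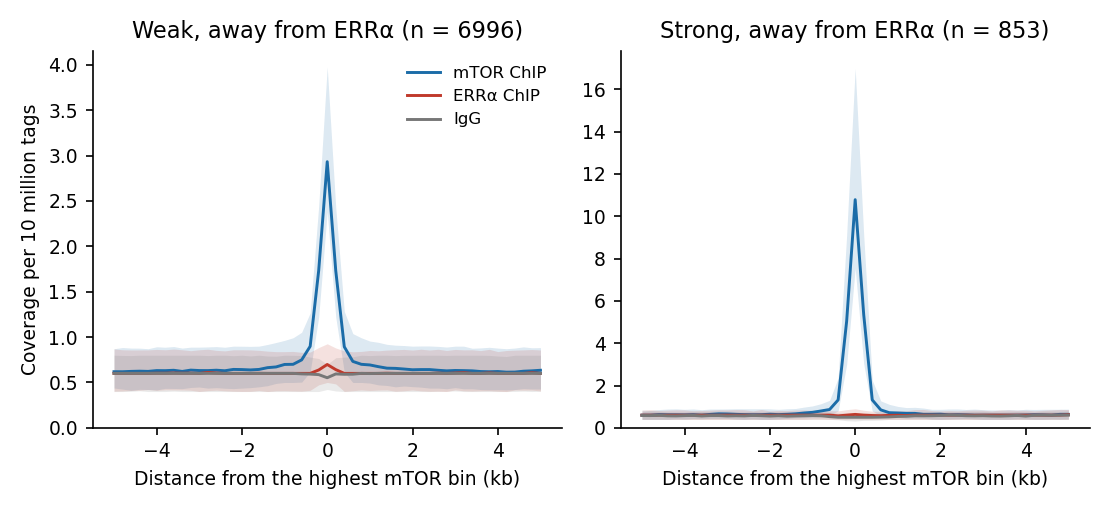
Median coverage per 10000000 tags (lines) with quartiles (shading) in 200-bp bins against the distance in kb from the highest mTOR bin, for weak (left) and strong (right) mTOR regions away from ERRα; 1 member at a chromosome end is not drawn, and the axes differ. At weak regions mTOR went from 2.93 in the highest bin to 0.693 at 1 kb. Over the same distance ERRα went from 0.698 to 0.6 and IgG from 0.552 to 0.598.

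The neighbourhood itself was somewhat better covered than the genome in all libraries. Median flank coverage was 0.692 for mTOR, 0.676 for ERRα and 0.629 for IgG, against 0.580, 0.574 and 0.596 around all covered bins. Flanks of strong regions away from ERRα were alike, at 0.689, 0.653 and 0.610. An uncovered IgG bin lay within 400 bp of the highest bin in 13 members (0.186%), against 0.369% of all covered bins; at strong regions away from ERRα it was 0.821%.

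Peaks of weak regions measured somewhat broader than those of strong regions, without allowance for their lower height. In the track itself, the mTOR peak was 369 bp wide at 50% of its maximum (quartiles 297 and 466), against 328 bp at strong regions away from ERRα. The width went from 396 bp in the lowest fold band to 333 bp in the highest. Background was not subtracted, so for a given shape a peak that stands lower above its flanks measures wider. Median maxima were 3.6 at members and 13.1 at strong regions away from ERRα, over mTOR flanks of 0.692 and 0.689. Whether the shapes differ beyond this was not tested. The deposited intervals also limit this measure, because their median length in the highest bin was 69 bp at members and 21.5 bp at strong regions. A width below 150 bp, the apparent length of an extended tag, was found in 15 members. Merged regions were mostly 1 bin long: 4090 members (58.5%) were a single bin, 2185 were 2 bins, and 142 were at least 800 bp. Single bins had a median fold of 3.74 and regions of 3 bins or more 6.56. Merging joins bins that pass the same limits on level and fold, so this link was partly built in. The widest was chr5:111847401-111850800, 3400 bp long, with 9.55 for mTOR, 0.6 for ERRα and 1.28 for IgG in its highest bin (6.57-fold, interval 3.98 to 14.8). It was followed by chr11:74979001-74981200 (6.87, 1.70 and 0.814 for mTOR, ERRα and IgG), chr17:39984001-39986000, chr8:28088601-28090600 (5.85, 0.9 and 0.6) and chr19:61194601-61196400 (13.7, 0.883 and 1.49).

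The highest levels belonged to sequence that was bright in every library. The 5 members with most mTOR coverage included 3 neighbours on chromosome 17. At chr17:39980801-39982000 coverage was 299 for mTOR, 76.4 for ERRα and 88.7 for IgG (3.36-fold, interval 3.11 to 3.65). At chr17:39984001-39986000 the values were 261, 59.6 and 73.6 (3.54-fold), and at chr17:39982601-39983600 they were 241, 50.04 and 60.7 (3.96-fold). These were followed by chr5:147072601-147072800, with 72.0, 18.4 and 22.4 (3.19-fold), and chr9:124076001-124076200, with 60.5, 3.27 and 6.02 (9.75-fold, interval 7.63 to 13.6). The peak at the last of these was 103 bp wide at 50% of its maximum, the narrowest of all members. In all, IgG exceeded 2.0 in the highest bin of 21 members (0.3001%). Of these 21, 17 had a fold below 4, against 3107 of all 6997 members. Of 10890 bins of that IgG level on the autosomes, 51 (0.468%) reached a fold of 3, and the median mTOR fold there was 0.812. Without these 21 the median fold of the members was 4.22 and the median width at 50% of the maximum 369 bp, as with them. Among the other 6976 members the highest mTOR level, in regions chosen after their values were seen, was 16.3 at chr8:87678201-87678800, against 0.956 for ERRα and 1.88 for IgG (7.93-fold, interval 5.30 to 15.6). Next came chr17:50681601-50682200, with 15.2, 1.25 and 1.46 (9.28-fold).

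The 3 largest heights above flanks were found where flank coverage was below the median of covered bins. At chr13:66223001-66223400 mTOR coverage was 5.55, ERRα 0.873 and IgG 1.07 (4.52-fold), and mTOR stood at 204 times its flanks, but IgG stood at 42.9 times its own. At chr4:147048601-147049000 the values were 9.02, 1.03 and 2.72, with mTOR at 119 and IgG at 27.1 times the flanks. At chr1:24620001-24620200 they were 35.2, 10.6 and 10.997, with 113 for mTOR and 27.6 for IgG. The last 2 are among the 21 members with IgG above 2.0. ERRα stood at 19.3, 6.91 and 27.8 times its flanks at these regions, in the order given. All 3 were therefore raised in every library, and their mTOR fold over IgG was 3.16 to 4.52.

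The rule removed regions near called ERRα regions, and what remained of ERRα coverage at the members was slightly above the IgG level at the median. ERRα had a median of 0.698 in the highest mTOR bin (quartiles 0.5 and 0.927), which was 1.15-fold over IgG (0.901 and 1.49), against 1.00 over all covered bins. At strong regions away from ERRα the median ERRα fold was 1.21, and at weak regions near ERRα, which were chosen for an ERRα region, it was 2.42. The counting interval of ERRα over IgG included 1 in 6786 members (97.0%), lay above 1 in 201 (2.87%) and below 1 in 10. Highest bins held medians of about 7 ERRα and 5 IgG tags, so an interval that includes 1 does not show that ERRα was absent. Over all covered bins, 0.906% lay above 1 and 0.215% below. In each comparison here, the covered bins include those near ERRα regions and the 0.348% called for ERRα, which the members exclude. The share above 1 was 2.23% at strong regions away from ERRα. ERRα coverage exceeded IgG in 63.6% of members, against 66.6% of strong regions away from ERRα and 43.1% of all covered bins. These comparisons use the same IgG bins that helped to choose the members, which were low relative to their flanks. Against its own flanks, ERRα stood at 0.998 in members and 0.929 in all covered bins, while IgG stood at 0.888 and 0.952. A small local rise of ERRα from 0.6 at 1 kb to 0.698 was seen in the median profile. Under a call without IgG, ERRα and IgG stood at 1.15 and 1.17 times their flanks, and with a minimum level of 3.0 at 1.04 and 1.06. The ratio of ERRα was the higher one with 100-bp bins (1.03 and 0.852), IgG averaged within 1 kb (1.06 and 1.05) and a pseudocount of 0.4 (0.964 and 0.832). What sets these differences was not tested.

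**Figure D3:**
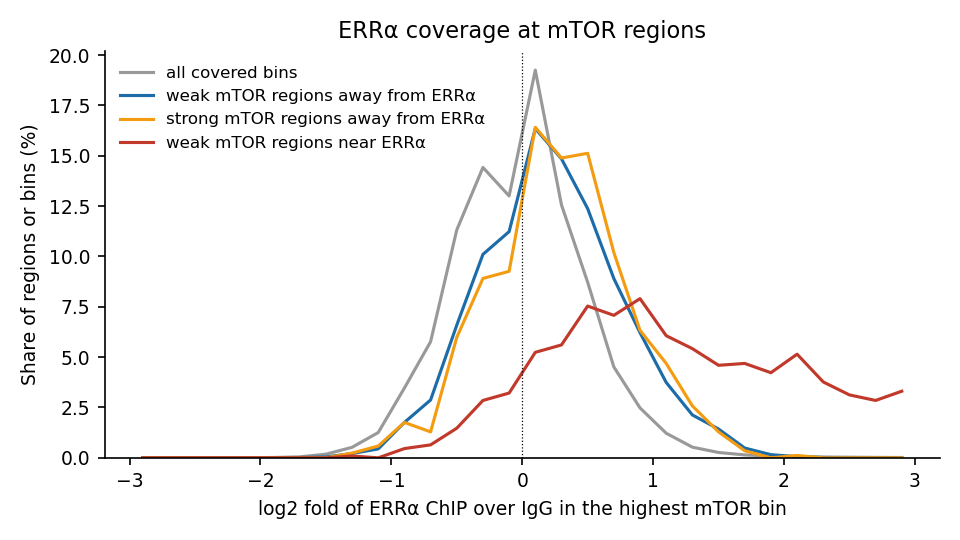
Share of regions or bins (%) against the log2 fold of ERRα over IgG in the highest mTOR bin, in steps of 0.2, for weak and strong mTOR regions away from ERRα, weak mTOR regions near ERRα, and all covered bins. The distributions of weak and strong regions away from ERRα nearly coincide, with medians of 1.15-fold and 1.21-fold; values above 3 on the log2 scale, found among weak regions near ERRα, are not drawn.

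Single members departed from this in both directions, with few tags behind each. The highest ERRα folds were at chr6:3150601-3150800, with 2.44 for mTOR, 1.94 for ERRα and 0.232 for IgG (ERRα 4.95-fold, interval 2.13 to 78.0), at chr9:121606801-121607200 (4.42, 1.97 and 0.3) and at chr17:29553001-29553400 (2.21, 1.51 and 0.2). In these 3 regions IgG came from about 2 or 3 tags, and ERRα stayed below the level of 2.0 that a call needs. The lowest ERRα folds were at chr6:47694001-47694200, with 11.9 for mTOR, 0.1 for ERRα and 1.22 for IgG, at chr4:22203801-22204200 (3.67, 0.2 and 1.03) and at chr9:53405001-53405200 (3.92, 0.2 and 1.01). Within 1 kb of the highest mTOR bin, 2063 members (29.5%) had a bin with an ERRα fold of at least 2, against 31.5% of strong regions away from ERRα and 14.99% of covered bins more than 1 kb from ERRα. The bins read there include the one whose IgG value helped to choose the member.

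Compared directly with ERRα, without IgG in the ratio, mTOR was 3.82-fold higher at the median member. A ratio above 1 was built in by the rule, which asked for mTOR above 2.0 and no ERRα region nearby. Its interval lay above 1 in 6407 members (91.6%), as in 0.497% of all covered bins, and included 1 in 590 (8.43%). In those 590, a difference between the ChIPs was not detectable at this depth. The lowest fold band held 469 of them.

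Although no ERRα region lay within 1 kb, the members lay closer to ERRα regions than covered bins did. The median distance to the nearest of the 21679 ERRα regions, which held 0.348% of covered bins, was 18.8 kb (quartiles 7.20 and 48.4), against 80.8 kb for all covered bins that were likewise more than 1 kb away. An ERRα region lay within 10 kb of 2300 members (32.9%, exact binomial interval 31.8 to 34.0), against 12.5% of such bins, and within 100 kb of 88.9% against 54.7%. Strong regions away from ERRα gave similar values, with a median of 18 kb, 33.5% within 10 kb and 92.5% within 100 kb. That binomial interval treats regions as independent draws and leaves out the error of repeating the experiment and the choice of settings. Regions of both ChIPs were called against the same IgG library, and gene density and open chromatin were not analysed here, so their part in this proximity was not tested.

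**Figure D4:**
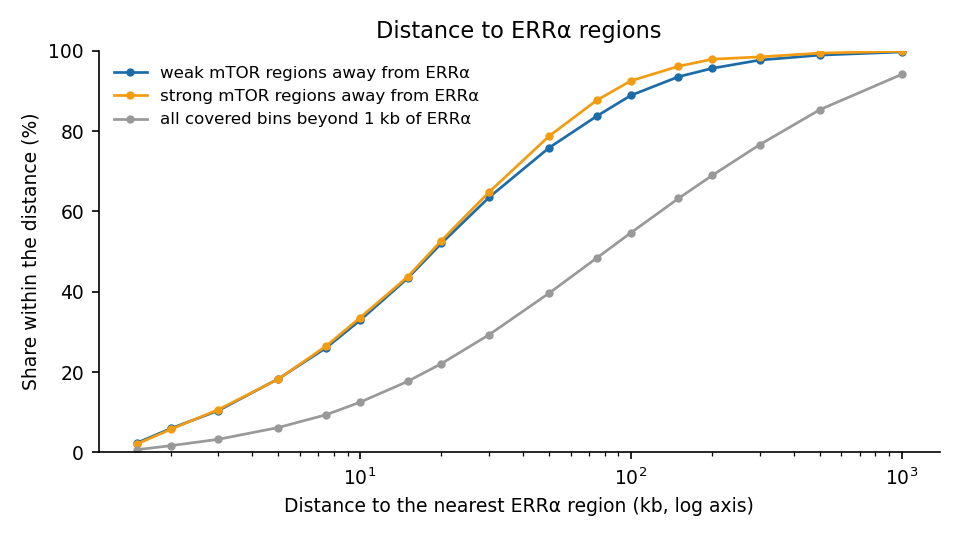
Share of regions or bins (%) within a given distance in kb (log axis) of the nearest ERRα region, for weak and strong mTOR regions away from ERRα and for all covered bins more than 1 kb from ERRα. The curves of weak and strong regions lie together, at 32.9% and 33.5% within 10 kb, above the curve of covered bins at 12.5%.

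At the near end, 77 members lay 1.2 kb from an ERRα region, the smallest distance the rule allowed in steps of 200 bp. The first of these by position was chr1:74057201-74057400, with 2.34 for mTOR, 1.02 for ERRα and 0.538 for IgG (3.45-fold), followed by chr1:93318601-93319400 (3.76, 0.5 and 0.5) and chr1:132990401-132990800 (5.15, 1.47 and 0.789). At the far end, chr14:92120601-92120800 lay 3306 kb from the nearest ERRα region. It had 2.08 for mTOR, 0.706 for ERRα and 0.544 for IgG (3.06-fold, interval 1.33 to 12.97), about 17 mTOR tags. The next in distance were the bright neighbours chr17:39984001-39986000 and chr17:39982601-39983600, at 2576 and 2575 kb.

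Density by chromosome followed that of ERRα regions. Members were densest on chromosome 19, at 4.57 per Mb of covered sequence, and on chromosome 11, at 4.22, and sparsest on chromosome 3, at 2.08. The median autosome had 2.92. On chromosomes 19, 11 and 3, the density of ERRα regions was 14.1, 15.1 and 6.03 per Mb. Across the 19 autosomes Pearson's r between both densities was 0.925 and Spearman's rho 0.912, as a description. The points share the IgG library and the mappable sequence. With strong mTOR regions away from ERRα the values were 0.816 and 0.811. The number of members for each strong region ranged from 5.38 on chromosome 13 to 11.1 on chromosome 4.

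**Figure D5:**
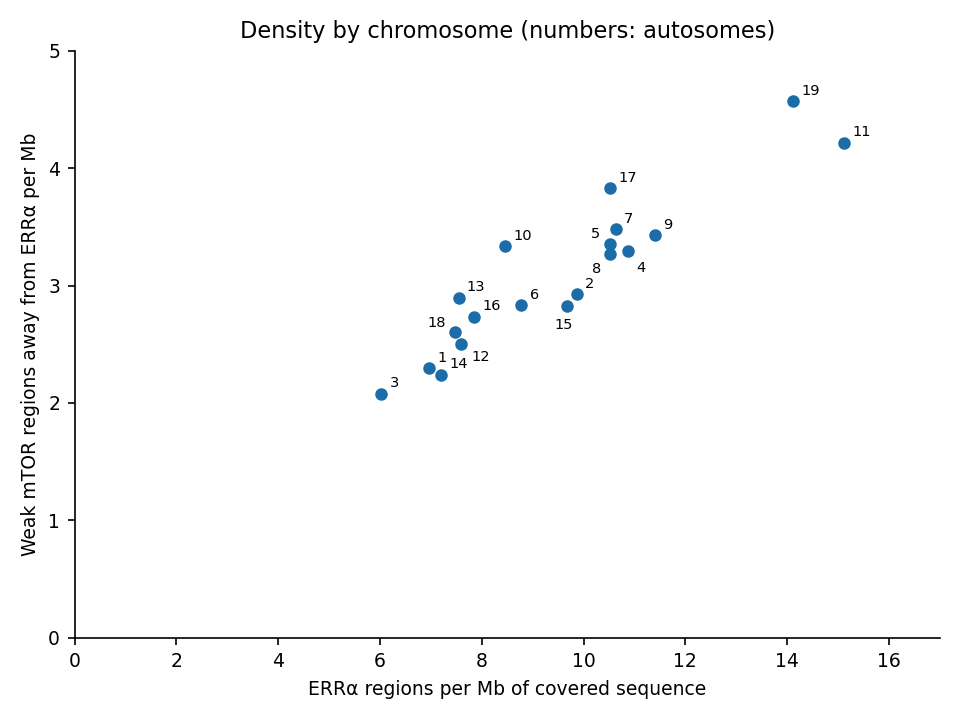
Weak mTOR regions away from ERRα per Mb of covered sequence against ERRα regions per Mb, 1 point per autosome, numbered. Chromosomes 19 and 11 stand highest on both axes (4.57 and 4.22 members per Mb) and chromosome 3 lowest (2.08).

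Within chromosomes, members were mostly alone yet unevenly spread. With a gap of up to 1 kb allowed, 6491 members (92.8%) stood alone, 222 pairs formed, and 19 groups held 3 or more, with 6 in the largest. The median distance to the next mTOR region of any kind was 31.6 kb, and 1558 members (22.3%) had none within 100 kb. A strong mTOR region lay within 1 kb of 61 members (0.872%). Neither this share nor that of members standing alone has a value over covered bins beside it, so they are not read as high or low. The median distance to a strong region was 480 kb, against 1335 kb for all covered bins. On a scale of 1 Mb, 777 of 2390 windows (32.5%) held no member, while 138 windows (5.77%) with 10 or more held 1687 members (24.1%). The median number of ERRα regions was 22.5 in those 138 windows, 6 in all windows and 1 in windows without a member. The densest window was chr17:34000001-35000000, with 25 members, 31 ERRα regions and 3 strong mTOR regions away from ERRα. The next were chr15:76000001-77000000, with 24 members and 33 ERRα regions, and chr10:79000001-80000000, with 23 and 70.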

How the data were processed

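The 3 libraries, 1 for each antibody, were grouped by title. Each deposited track holds signal (coverage by tags) that the authors had brought to 10000000 tags, per the file headers; single 50-bp reads were sequenced, per the labels' protocols. The build mm9 and the tools MACS 1.4.1 and BWA 0.5.9 are named in the submitters' processing notes without their roles. Tag extension and the treatment of duplicates are not stated there. Values came in steps of 0.1.

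Members and lists were chosen with earlier results of these data known. An ERRα region at a gap of exactly 1 kb counted as within 1 kb. Tags per bin were approximated with tags taken as 150 bp long and the total of each library; a level of 2.0 equals about 16.7 mTOR, 19.8 ERRα or 18.3 IgG tags. Ratio intervals used these tags without the 0.2 added. Regions named are, by rule, the 5 of highest coverage, the 5 widest, 3 on each side of either fold limit, and 3 at each extreme of distance to ERRα, ERRα fold and ratio to flanks, with the densest window; other windows and 2 regions with IgG up to 2.0 were chosen after their values were seen. The caller was run on simulated libraries with planted regions, drawn from the IgG track with counting error only. Its recovery of weak regions is not reported here. No mm9 annotation or sequence was used, so genes, motifs and marker genes were not analysed here. The software was SciPy 1.17.1, pandas 2.3.3, NumPy 2.4.6 and Matplotlib 3.10.9 under Python 3.11.15.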

Additional observations from a re-analysis of the deposited data

Results flagged for a closer look

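Coverage of the mitochondrial chromosome, which lies outside the rule for the members, was above the control in the mTOR ChIP: its mean over covered positions was 358 for mTOR against 120 for IgG (2.975 times) and 119 for ERRα. The 21 members with IgG above 2.0 had a median ratio of mTOR to IgG of 3.38 and of ERRα to IgG of 0.839. In 11 of these 21 the peak was narrower than 180 bp at 50% of its maximum, and in 17 the mTOR flanks were below 1.2. Among all members the 5th percentile of that width was 206 bp, so widths below 180 bp were uncommon. The 95th percentile of the mTOR flanks was 1.06, so flanks below 1.2 were usual among members. The relation between these values was not tested.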

How the results depend on the processing

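Of 16 alternatives for the number of members, 13 kept it within 1.5 times of 6997; it was 11215 with 100-bp bins, 3503 with a minimum level of 3.0 and 4105 with a fold from 4. Counting a gap of exactly 1 kb as away (7096) and leaving out members near a strong mTOR region (6936) were added after seeing the data. The swapped count, 124, was 1033 with 100-bp bins, 602 with IgG averaged within 1 kb, 12 with a fold from 4, 1289 where the genome-wide mean replaced IgG, 4 with a minimum level of 3.0 and 35 with a pseudocount of 0.4. With 100-bp bins, IgG averaged within 1 kb, a genome-wide mean, a minimum level of 3.0 and a pseudocount of 0.4, in that order, the median mTOR fold was 3.98, 3.94, 3.65, 5.21 and 3.97; the median ERRα fold over IgG was 1.2, 1.06, 1.03, 1.06 and 1.13; the ratio to flanks was 4.05, 4.498, 4.26, 6.09 and 4.97 for mTOR, 1.03, 1.06, 1.15, 1.04 and 0.964 for ERRα, and 0.852, 1.05, 1.17, 1.06 and 0.832 for IgG. The share of members with an ERRα region within 10 kb was 38.96%, 34.6%, 39.6%, 25.7% and 27.8%. The median width was 533 bp at 33% of the maximum. The IgG ratio to flanks was thus above 1 with IgG averaged, with the genome-wide mean and with the higher minimum level, and below 1 otherwise; the cause was not tested. No paired analysis was possible because each group has 1 library. Depth limits every ratio: the median member had about 24 mTOR tags against 5 IgG tags. The planned annotation and motif alternatives were not run, since they need mm9 sequence.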
